A study of Mus musculus with 2 samples.

Results

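The 10 genes described are the 7 small leucine-rich proteoglycan genes Dcn, Lum, Bgn, Fmod, Ogn, Prelp and Aspn, the large proteoglycan gene Vcan, and the hyaluronan synthase genes Has1 and Has2. They were taken by gene symbol, and all 10 were among the 33696 features of the deposited count tables. Transcripts were counted cell by cell, with droplet-based 3' sequencing, in dorsal skin wounds of 10 mm through the full skin thickness, taken at day 6 from male wild-type C57BL/6 mice, an inbred strain. The aged library came from mice of 24 months and the young library from mice of 2 months, and each pooled cells of several mice. No further allele or agent is named in the labels, and both groups carried the same wound.

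Small leucine-rich proteoglycans are secreted proteins that bind collagen fibrils and set how the fibrils assemble. Versican is a large chondroitin sulfate proteoglycan that binds hyaluronan, a long sugar chain which the Has enzymes make at the plasma membrane and extrude from the cell. In skin wounds, versican and hyaluronan are known for a loose, hydrated provisional matrix, and decorin, the product of Dcn, for binding TGF-beta as well as collagen.

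After filtering, the aged library held 4210 cells with a median of 13776.5 unique molecular identifiers (UMIs) per cell, and the young library 4661 cells with a median of 15566. The deposited totals were 107865898 UMIs in the aged library and 111810068 in the young library, and 3 barcode sequences occurred in both. Cells were assigned to types by summed marker genes that include none of the 10 genes. The fibroblast gate (Col1a1, Col1a2, Col3a1, Col6a3, Pdgfra, Mmp2, Fbn1 and Postn) took 1422 aged cells, or 33.8%, and 1495 young cells, or 32.1%. Levels are given as CPM, the UMIs of a gene over all UMIs of a group of cells, scaled to a total of 1000000. The summed marker level was 57336 CPM in aged and 65106 in young fibroblasts, against at most 248 CPM in gated macrophages and monocytes, neutrophils, T and NK cells and endothelial cells of either library. Gated aged fibroblasts had a median of 49885 UMIs and young ones 42202, and their early-response genes, which tissue dissociation can induce, summed to 3221 CPM in aged and 4431 in young fibroblasts. Whether these differences have a part in the results below was not tested. With 1 library per age there is no replicate and no test between ages, so all intervals are 95% intervals of counting error only. Effects of age cannot be told apart from those of the pooled mice or of the preparation of each library.

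Pairs of these genes are neighbours in the mouse genome (RefSeq, GRCm38.p6), so their levels are also given together further on. Dcn and Lum lie 47.3 kb apart on chromosome 10 and Prelp and Fmod 107 kb apart on chromosome 1, with no other protein-coding gene between them. Aspn and Ogn lie 40.5 kb apart on chromosome 13 with 1 coding gene, Omd, between them. The 250 bases before the start site in the RefSeq promoter table, held for 7 of the 10 genes, are printed for 3. For Has1, Vcan and Prelp, genes of the minus strand, this window lies within the gene's RefSeq span and not before it. Ogn and Aspn are shown as neighbours whose levels went together across fibroblasts, and Has1 as a gene whose level was higher in interferon-high than in other fibroblasts. Capitals mark the motif TATAAA on either strand, and all 3 sequences are on the strand of the gene.
Ogn, chr13:49607765-49608014, plus strand: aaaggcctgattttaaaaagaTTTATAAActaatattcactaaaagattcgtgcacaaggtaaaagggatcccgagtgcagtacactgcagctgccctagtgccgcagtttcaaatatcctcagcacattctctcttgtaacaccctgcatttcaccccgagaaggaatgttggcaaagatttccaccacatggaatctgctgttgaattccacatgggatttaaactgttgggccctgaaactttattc
Aspn, chr13:49544193-49544442, plus strand: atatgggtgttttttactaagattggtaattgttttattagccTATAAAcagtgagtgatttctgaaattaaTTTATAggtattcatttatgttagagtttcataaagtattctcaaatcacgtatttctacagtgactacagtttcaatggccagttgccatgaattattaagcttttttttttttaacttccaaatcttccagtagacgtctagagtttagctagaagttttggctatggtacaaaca
Has1, chr17:17855189-17855438, minus strand: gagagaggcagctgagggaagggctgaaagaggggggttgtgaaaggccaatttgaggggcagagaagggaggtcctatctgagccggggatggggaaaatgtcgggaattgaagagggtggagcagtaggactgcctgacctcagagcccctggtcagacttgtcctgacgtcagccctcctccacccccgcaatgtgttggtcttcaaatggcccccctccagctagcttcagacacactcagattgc
TATAAA or its reverse complement occurred 2 times in Ogn, in overlapping positions, and 2 times in Aspn, and it occurred in 12.4% of the 32851 promoters of the table over the same length. The AP-1 motif TGANTCA (in 6.75% of promoters), the interferon-stimulated response element core letters GAAANNGAA (7.13%) and the STAT motif TTCNNNGAA (7.02%), each searched on both strands and with letters that can overlap, had no match in the 7 windows. No match says only that these letters are not in these windows.

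All 10 genes had most of their UMIs in gated fibroblasts. For Dcn, Lum, Bgn, Fmod, Ogn, Prelp, Aspn, Has1 and Has2, fibroblasts held 96.6% to 98.0% of the aged library's UMIs and 93.6% to 97.2% of the young library's. For Vcan the share was lower, at 88.4% in the aged and 85.8% in the young library. Levels are compared between groups of cells and not between genes.

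Free RNA in droplets can give other cell types some fibroblast transcripts, so each gene was set against Col1a1 in the same cells. In macrophages and neutrophils the ratio of Dcn, Lum, Bgn, Ogn, Prelp and Aspn to Col1a1 was 0.834 to 2.69 times that of fibroblasts. Among them Bgn ran from 1.75 to 2.69 times. How much of these levels is free RNA was not tested. Dcn was at 10.5 CPM in aged and 17.5 in young macrophages and monocytes, and its ratio to Col1a1 there was 0.842 times the fibroblast ratio in the aged and 1.18 times in the young library. In neutrophils Dcn was at 17.8 CPM in the aged and 20.7 in the young library, with 1.08 times and 0.961 times the fibroblast ratio to Col1a1. Fmod had 0 UMIs in gated macrophages, neutrophils, T and NK cells and endothelial cells of both libraries. Has1 had 2.62 to 5.42 times the fibroblast ratio in macrophages and neutrophils, at 5.31 and 6.42 CPM in the aged library and 7.01 and 5.36 in the young one. Vcan stood at 7.97 times that proportion in aged and 11.2 times in young neutrophils, and at 25.4 and 55.0 times in endothelial cells. The 4 highest neutrophils held 108 of 143 aged and 123 of 321 young Vcan UMIs of that type. Only 22 of 920 aged and 90 of 1346 young neutrophils had any. Prelp in endothelial cells stood at 11.2 times in the aged and 28.2 times in the young library, from 8 and 14 UMIs. Vcan in macrophages and Bgn in endothelial cells were also above it and are described further on.

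**Figure D1:**
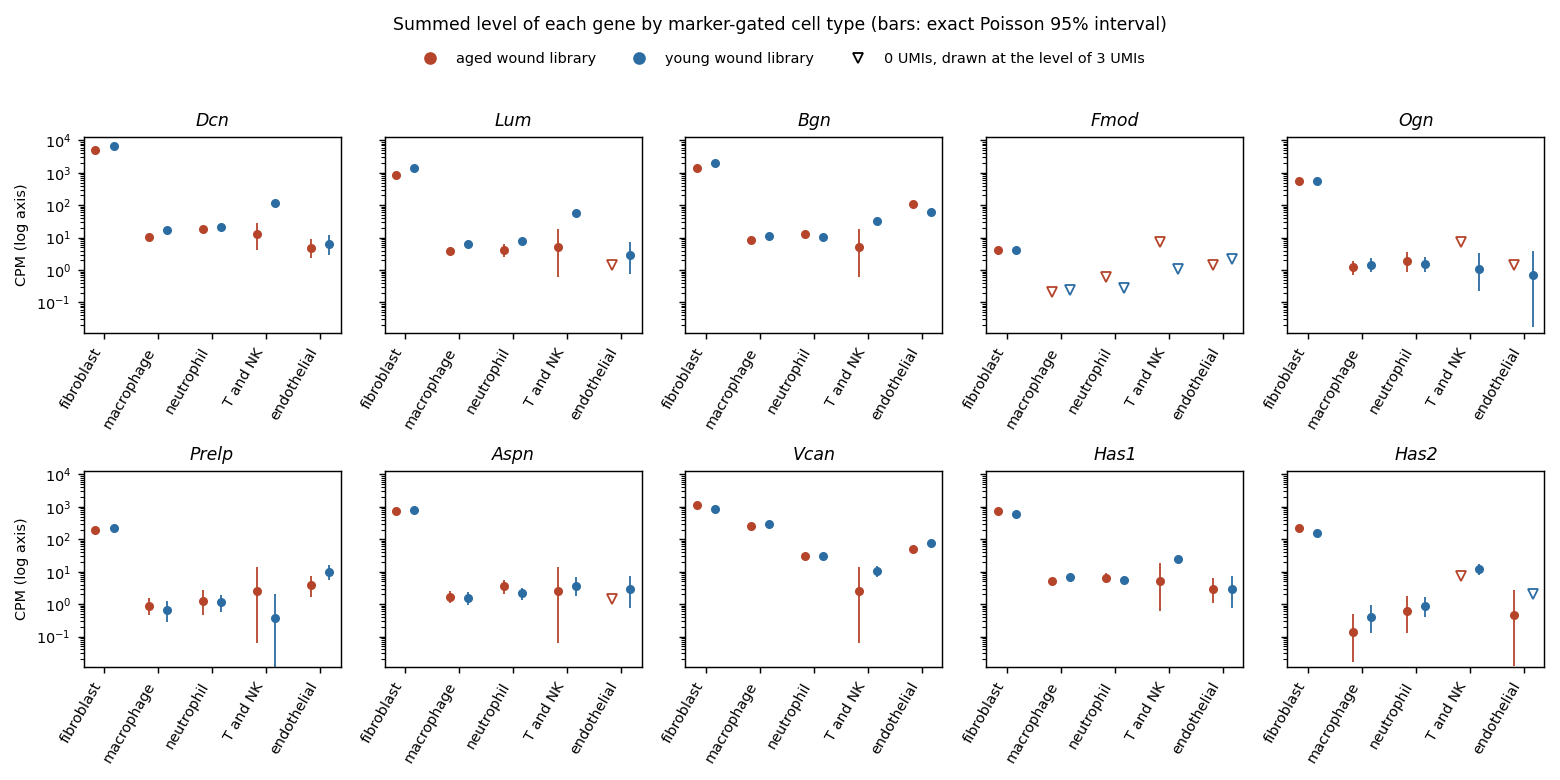
Level of each gene, as CPM on a log axis, in 5 marker-gated cell types of the aged (red, left) and young (blue, right) library, with exact Poisson 95% intervals as bars and open triangles for 0 UMIs. Every gene has its highest filled point in fibroblasts, and Vcan also stands at 255.5 in aged and 306 in young macrophages.

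Summed over all cells, 1 of the 10 genes was at least 1.5-fold higher in the aged library, against 8.96% of all 17799 genes counted, and 0 of 10 were at least 1.5-fold lower, against 8.73%. In these sums, fewer cells of a type and less RNA per cell cannot be told apart. The 1 gene was Has2, with 164 CPM in the aged and 101 CPM in the young library (ratio 1.62, interval 1.58 to 1.66). Vcan stood at 877 in the aged and 601 in the young library (1.46), and Has1 at 522 and 375.0 (1.39), in the same order. Lum had the lowest ratio of these genes, at 627 in the aged and 882 in the young library (0.711). The median gene had a log2 ratio of 0.12 over all cells, which TMM scaling moved by -0.11. Prelp (1.01) and Aspn (1.01) change sides under that scaling, to 0.932 and 0.938.

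Within gated fibroblasts Dcn, Lum and Bgn were lower in the aged library, and Vcan, Has1 and Has2 were higher. The ratios of the other small leucine-rich proteoglycan genes ran from 0.898 to 1.04. At 1.5-fold, 0 of 10 were higher, against 9.58% of 15728 genes, and 1 of 10, Lum, was lower, against 5.87%, a share near that of all genes. The median gene had a log2 ratio of 0.09.

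Lum encodes lumican, a keratan sulfate proteoglycan that limits fibril thickness. It stood at 880.5 CPM in aged and 1400 in young fibroblasts, a ratio of 0.629 (0.623 to 0.635). Its median cell had 7.80 UMIs per 10000 in the aged and 13.1 in the young library. After each cell was thinned to 2000 UMIs, 68.2% of aged and 79.9% of young fibroblasts had a Lum UMI.

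Dcn, the gene of decorin, was at 4950 CPM in aged and 6766 in young fibroblasts, a ratio of 0.732 (0.728 to 0.735). Nearly every fibroblast had a Dcn UMI even when thinned, 98.2% in the aged and 98.6% in the young library. The 25th and 75th percentile cells had 31.1 and 66.6 UMIs per 10000 in the aged library and 50.2 and 87.1 in the young library, so the 2 sets of cells overlapped widely. Bgn, the gene of biglycan, the nearest relative of decorin, was at 1453 in aged and 1937 in young fibroblasts, with a ratio of 0.750 (0.744 to 0.756).

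The other small proteoglycans differed less. Prelp, whose protein binds basement membrane perlecan and collagen, was at 198 in aged and 218 in young fibroblasts, with a ratio of 0.908. Aspn, the gene of asporin, was at 731.5 in aged and 815 in young fibroblasts (0.898). Ogn, the gene of osteoglycin, was at 560 in aged and 539 in young fibroblasts (1.04), and that order turns round to 0.979 with TMM scaling. Fmod, the gene of fibromodulin, had 301 UMIs in 86 aged fibroblasts and 276 in 121 young ones, with a ratio of 0.986 (0.835 to 1.16), and its highest aged cell alone held 43 of those UMIs.

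Vcan, Has2 and Has1 were higher in the aged library over all gated fibroblasts, each by less than 1.5-fold. Vcan was at 1115 CPM in aged and 848 in young fibroblasts, a ratio of 1.31 (1.30 to 1.33). Has2, the synthase that is needed for most hyaluronan in the mouse embryo, was at 230 in aged and 156 in young fibroblasts, a ratio of 1.47 (1.44 to 1.51). Thinned to 2000 UMIs, 32.4% of aged and 22.4% of young fibroblasts had a Has2 UMI, and 73.9% of aged and 66.5% of young ones a Vcan UMI. Has1, another of the synthases, was at 733.5 in aged and 592 in young fibroblasts, a ratio of 1.24 (1.22 to 1.25).

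**Figure D2:**
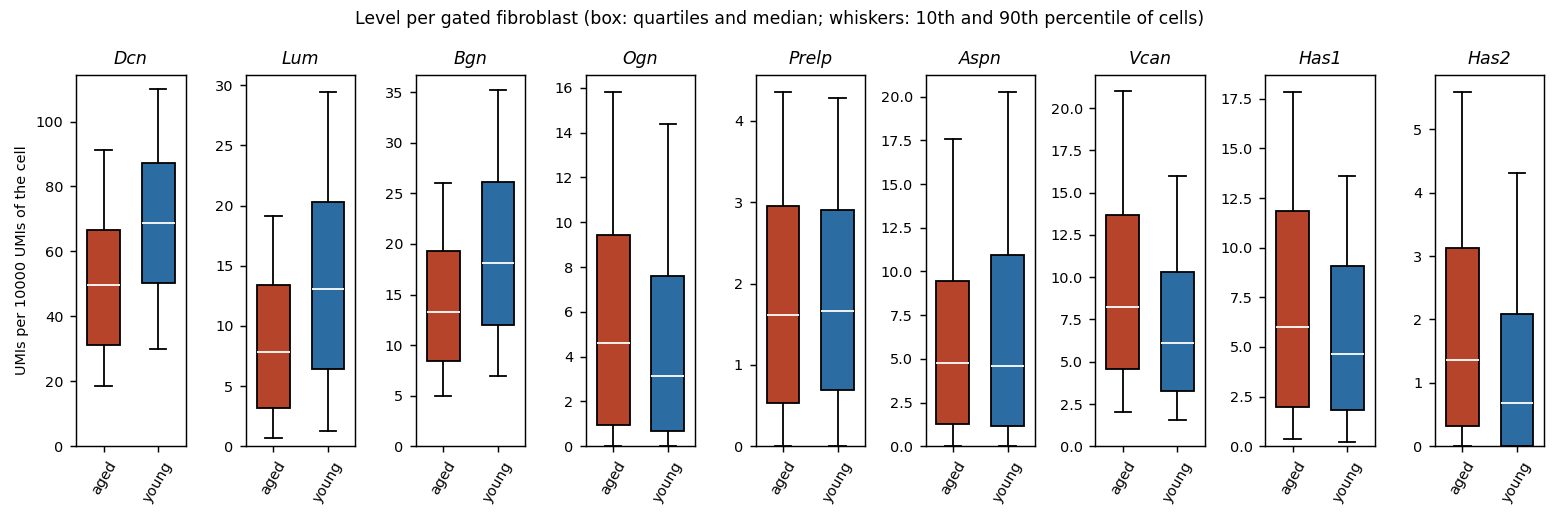
Level per gated fibroblast, as UMIs per 10000 UMIs of the cell, for 9 of the genes (aged left, young right; box for quartiles and median, whiskers for the 10th and 90th percentile of cells). The boxes of the 2 libraries overlap for every gene, with the median of Lum at 7.80 in aged and 13.1 in young cells and that of Has2 at 1.36 and 0.686 in the same order.

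Fibroblasts were split further by overlapping marker gates. Myofibroblast markers (Acta2, Crabp1, Prss35, Tagln and Cnn1) gated 115 aged and 105 young cells. Cxcl14, C7, Cilp, Mfap4 and Eln gated 282 aged and 438 young cells, and the adventitial markers Pi16, Dpp4, Cd55 and Sema3c gated 507 aged and 426 young cells. Proliferation genes gated 112 aged and 66 young cells as cycling, and interferon-response genes gated 343 aged and 112 young cells as interferon-high. None of the Acta2 Crabp1, Cxcl14 C7, Pi16 Dpp4 and Coch Wif1 subset gates was passed by 600 aged and 646 young cells. Cycling and interferon-high cells were not taken out of these ungated cells.

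Has1 and Ogn were low in the Acta2 Crabp1 subset. There 0 of 10 genes were at least 2-fold higher than in the other fibroblasts in both libraries, against 3.03% of 13443 genes, and 2 of 10 were at least 2-fold lower, against 4.57%. Has1 was at 218 CPM in these aged cells, against 790 in the other aged fibroblasts (0.276-fold). In the young library it was at 178 in these cells, against 629 (0.284-fold). Ogn was at 0.428-fold the level of the other fibroblasts in the aged and 0.384-fold in the young library. Prelp was at 0.299-fold in the aged and 0.545-fold in the young library, so it passed 2-fold in the aged library alone. Dcn was also lower there, at 0.596-fold in the aged and 0.653-fold in the young library, while Lum, Bgn and Aspn lay between 0.899-fold and 1.15-fold.

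In the Cxcl14 C7 subset, Fmod and Ogn were the 2 of 10 genes at least 2-fold higher in both libraries, against 1.84% of genes, and 0 of 10 were 2-fold lower, against 2.19%. Fmod was at 17.5 CPM in these aged cells, against 1.23 in the other aged fibroblasts (14.3-fold), and at 10.4 in these young cells, against 1.79 (5.79-fold). Of its fibroblast UMIs, 225 of 301 in the aged and 187 of 276 in the young library lay in this subset. Few cells carried them, since the 10 highest fibroblasts held 53.5% of the Fmod UMIs of aged and 42.0% of those of young fibroblasts. Ogn was 2.04-fold higher in the aged and 2.59-fold in the young library. Aspn stood at 1.97-fold in the aged and 2.55-fold in the young library, and Bgn at 1.81-fold and 1.79-fold, while Vcan and Has2 lay closer to the other fibroblasts, Vcan (1.04-fold and 1.09-fold) and Has2 (0.903-fold and 0.857-fold).

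In the Pi16 Dpp4 subset the pattern was another one. No gene was at least 2-fold higher in both libraries (0 of 10, against 1.65%), and Fmod alone was 2-fold lower (1 of 10, against 4.05%), at 0.161-fold in the aged and 0.186-fold in the young library. These Fmod folds rest on 21 UMIs in the aged and 18 in the young cells of the subset. Has1 was at 1210 CPM in these aged cells, against 511 in the other aged fibroblasts (2.37-fold), and at 850 in these young cells, against 495 (1.72-fold). Ogn was 2.32-fold higher in the aged and 1.497-fold in the young library, and Prelp 2.14-fold and 1.47-fold. Vcan was at 1413 CPM in these aged cells, against 976 in the other aged fibroblasts, and at 1120 CPM in these young cells, against 747.

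Cycling fibroblasts had little Ogn, at 157 CPM against 613 in the other aged fibroblasts (0.256-fold) and 119 against 572 in the young library (0.208-fold). It was the 1 of 10 genes at least 2-fold lower in both libraries, against 2.84%, with 0 of 10 higher, against 5.42%. The level of Aspn in cycling cells was 0.617-fold that of other fibroblasts in the aged and 0.268-fold in the young library. Interferon-high fibroblasts had 0 of 10 genes 2-fold higher, against 1.67%, and 0 of 10 2-fold lower, against 3.08%. The Coch Wif1 gate held 7 aged and 49 young cells, so that only the young are described. Of these 49 cells, 31 also passed the Acta2 Crabp1 gate. Lum was 2.12-fold higher in the 49 than in the other young fibroblasts, while Ogn was at 0.106-fold, Has2 at 0.263-fold and Has1 at 0.322-fold.

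**Figure D3:**
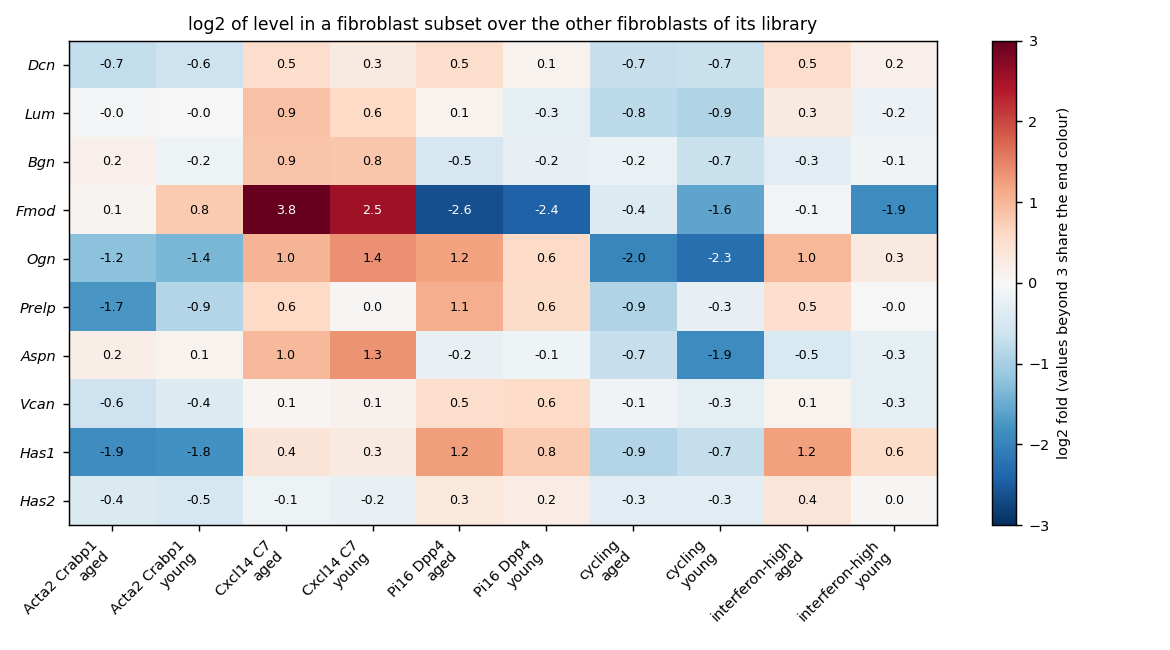
The log2 fold of each gene in 5 fibroblast subsets over the other fibroblasts of the same library (aged left of young in each pair; red higher, blue lower in the subset). Fmod stands out as highest in Cxcl14 C7 cells and lowest in Pi16 Dpp4 cells, and Ogn and Has1 as low in Acta2 Crabp1 cells.

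The aged over young ratio was then taken within each subset. In the Acta2 Crabp1, Cxcl14 C7, Pi16 Dpp4, ungated and cycling fibroblasts, Has2 was higher in the aged library with ratios from 1.39 to 1.57, and Vcan with ratios from 1.14 to 1.47. In the same 5 groups Dcn was lower, with ratios from 0.621 to 0.874, and Lum, from 0.553 to 0.771. Bgn ran from 0.662 in Pi16 Dpp4 cells to 1.03 in cycling cells, where its interval (0.993 to 1.06) included 1. Each of these orders thus held in all 5 groups except for Bgn.

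The ratio of Has1 differed between cells above and below the interferon gate, a difference that was not tested. In interferon-high fibroblasts Has1 was at 1333 CPM in the aged and 848 in the young library, which gave a ratio of 1.57 (1.52 to 1.63). In fibroblasts below that gate it was at 572 in the aged and 574 in the young library, which gave a ratio of 0.996 (0.981 to 1.01). Of the interferon-high cells, 227 of 343 aged and 53 of 112 young ones also passed the Pi16 Dpp4 gate, so both gates were crossed. Has1 was at 1519 in aged and 968 in young cells that passed both (1.57), at 982.5 and 836 in those with the Pi16 Dpp4 gate alone (1.18), at 1007 and 746 in those with the interferon gate alone (1.35), and at 448 and 482 in those with neither (0.928). With the aged cells set to the young mix of these 4 groups, a comparison chosen after seeing the data, the fibroblast ratio of Has1 was 1.06, against 1.24 as summed. The ratio of Has2 was 1.42 at that mix and that of Vcan 1.32, beside the summed 1.47 and 1.31. Ogn moved to 0.927, against 1.04 as summed, and Lum to 0.616, beside 0.629. Macrophage marker genes were at 612 CPM in aged and 793 in young interferon-high fibroblasts, against 290 and 374 below the gate, and their part in the result was not tested.

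**Figure D4:**
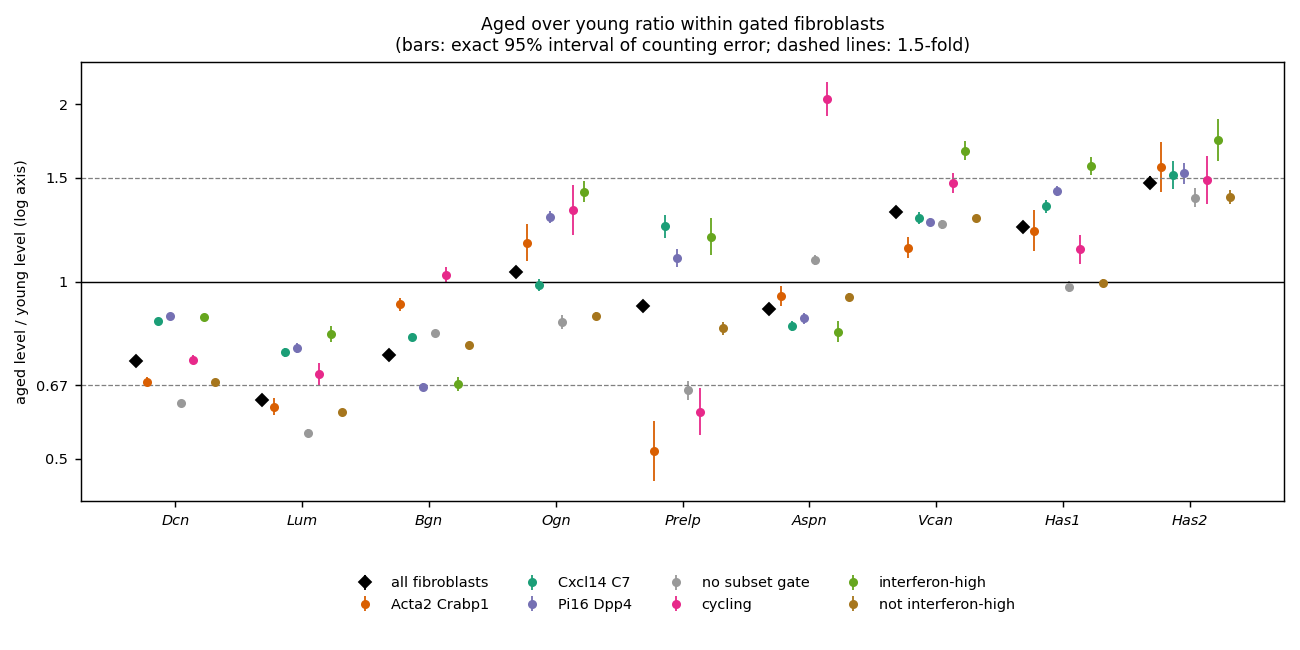
Aged over young ratio on a log axis for 9 of the genes in all gated fibroblasts (black diamonds) and in 7 subsets (coloured points), with exact 95% intervals of counting error as bars. All points of Has2 and Vcan lie above 1 and all points of Dcn and Lum below 1, and Has1 runs from 0.980 in ungated to 1.57 in interferon-high cells.

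Vcan was the 1 gene of the 10 with a clear level in myeloid cells. Gated macrophages and monocytes had 255.5 CPM of Vcan in the aged and 306 in the young library, which gave a ratio of 0.835 (0.798 to 0.874) in the pooled cells. The subsets of these cells did not all share that order. Cells of the Ly6c2 Plac8 gate without the C1q gate, where Vcan was high, were 150 of 1020 aged and 154 of 682 young ones. Over all gated macrophages and monocytes, the ratio of Vcan to Col1a1 was 91.1 times that of fibroblasts in the aged and 165 times in the young library. Of the 5 genes with enough UMIs there, 0 were 1.5-fold higher, against 14.9% of genes, and 2, Dcn and Lum, were lower, against 4.24%, both at levels under 18 CPM. The median gene had a log2 ratio of 0.22 in these cells, which TMM scaling moved by -0.20.

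Among these cells Vcan was highest behind the monocyte gate alone. The Ly6c2 Plac8 gate, of blood monocyte markers, took 150 aged and 154 young cells that did not also pass the C1q gate. Vcan was at 886 CPM in the aged and 958 in the young ones. It was 5.24-fold higher there than in other macrophages and monocytes of the aged library and 5.68-fold in the young library. It was the 1 of 5 genes at least 2-fold higher in both, against 2.29%, with 0 lower, against 7.05%. The C1q gate used C1q genes, Mrc1 and Ms4a7, which mature macrophages express. In cells with that gate and not the Ly6c2 Plac8 gate, Vcan was at 92.4 in the aged and 110 in the young library. It was the 1 of 5 genes 2-fold lower, against 2.41%, with 0 higher, against 3.08%. Cells of both gates, 99 aged and 36 young, had Vcan at 231 and 310 CPM and were counted among the other cells in both comparisons. Thinned to 2000 UMIs, 48.3% of aged and 59.2% of young Ly6c2 Plac8 cells had a Vcan UMI, compared with 11.9% of aged and 7.73% of young C1q cells and 1.55% of aged and 2.38% of young neutrophils. The Mmp12 Il1a gate, which overlaps the others, had Vcan at 314 in the aged and 311 in the young library (ratio 1.01), with 0 of 5 genes 2-fold higher (0.771%) or lower (0.76%). In cells that passed neither the Ly6c2 Plac8 nor the C1q gate, Vcan was at 452 in the aged and 318 in the young library (1.42, 1.29 to 1.56). Barcodes that passed no gate also held Vcan, at 810 CPM in the aged and 444 in the young library. Of those UMIs, 38.1% of the aged came from 19 barcodes in fibroblast clusters, 34.4% from 205 in macrophage clusters and 27.5% from 276 in unnamed clusters. In the young library 17.1% came from 28 barcodes in fibroblast clusters, 26.4% from 83 in macrophage clusters and 55.9% from 288 in unnamed clusters. Within the macrophage clusters these barcodes had 782 CPM of Vcan in the aged and 671 in the young library.

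**Figure D5:**
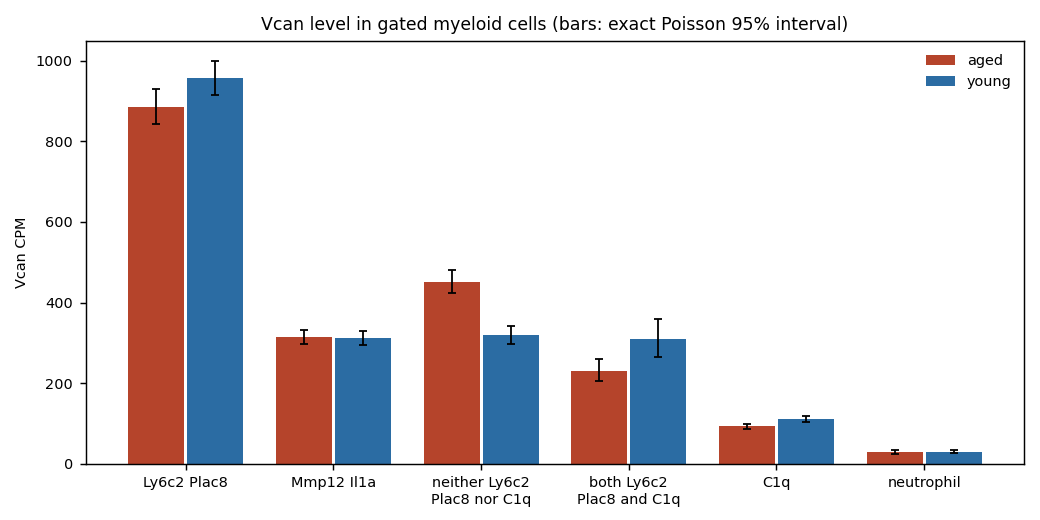
Vcan level, as CPM with exact Poisson 95% intervals, in gated subsets of macrophages and monocytes and in neutrophils (aged left, young right). Cells that passed both the Ly6c2 Plac8 and the C1q gate are drawn apart from either. Ly6c2 Plac8 cells stand highest at 886 in the aged and 958 in the young library, and C1q cells lowest of the macrophage gates at 92.4 and 110.

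Endothelial cells, few in both libraries (45 aged and 42 young), held Bgn at 113 CPM in the aged and 63.7 in the young library, at 45.1 and 20.4 times the fibroblast ratio to Col1a1. Of the 2 genes with enough UMIs, Bgn was higher with a ratio of 1.77 (1.38 to 2.28), against 11.5% of genes, and Vcan lower with 0.649 (0.490 to 0.860), against 5.11%. These rest on few cells, since the 4 highest cells held 112 of 236 aged and 72 of 90 young Bgn UMIs, and 76 of 102 aged and 90 of 106 young Vcan UMIs. The Vcan ratio turned round to 1.82 without the 10 cells with the most UMIs. In neutrophils 0 of 5 genes were 1.5-fold higher, against 20.8%, and 1, Lum, was lower, against 7.57%. That call rests on low levels, with 20 Lum UMIs in aged and 83 in young neutrophils, at 4.1 and 7.8 CPM. In T and NK cells 0 of 4 were higher, against 20.7%, and 4, Dcn, Lum, Bgn and Has1, were lower, against 19.3%. The 40 aged T and NK cells, however, held 5 Dcn UMIs in all, and in the 326 young ones 1 barcode held 268 of the 307 Dcn UMIs.

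Across gated fibroblasts, levels were compared for neighbours on the chromosome and for other pairs. Spearman's rho across cells, a description of cells that share a library and its depth, was 0.456 in the aged and 0.522 in the young library for Dcn and Lum, and 0.480 and 0.581 for Ogn and Aspn. For Fmod and Prelp it was -0.019 and 0.009, with Fmod detected in few cells. Some pairs that are not neighbours also had high values. In the aged library these included Prelp and Has1 (0.440), Ogn and Prelp (0.421), Dcn and Prelp (0.420) and Dcn and Ogn (0.414). The same pairs were lower in the young library, at 0.146, 0.145, 0.076 and 0.186 in that order. Lum and Aspn had 0.449 in the young and 0.383 in the aged library, and Bgn and Aspn 0.425 and 0.305. Over all pairs rho ran from -0.151 to 0.501 in the aged and from -0.121 to 0.581 in the young library. Has1 went with Ogn at 0.501 in the aged and 0.215 in the young library, and with Has2 at 0.329 and 0.222.

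Over 24 sums of UMIs (12 cell types and fibroblast subsets in both libraries), the genes most like those described by Pearson's r of log2(CPM + 1) were found. These sums share libraries and cells, and most of the spread is between fibroblasts and other cells. Dcn was most like Gdnf (0.995). Bgn was most like Aebp1 (0.990), Ogn most like Ms4a4d (0.991), Prelp most like Kif21a (0.989) and Aspn most like C1qtnf2 (0.994). Has1 was most like Gm42679 (0.995) and Ccl11. Vcan was most like Fn1 (0.948), the fibronectin gene, and Fmod most like Capn6 (0.923), the lowest values among the 10.

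Other genes of the same chemistry were taken from fixed lists and counted in gated fibroblasts at 1.5-fold. Of 24 other core protein genes counted, 3 were higher and 6 lower in the aged library, with a median log2 ratio of -0.02, against 9.58% of all genes higher, 5.87% lower and a median of 0.09. The highest ratios were those of Esm1 (5.14) and Spock1 (3.44) and the lowest those of Kera (0.478) and Epyc (0.483), each at under 2 CPM. Omd, the gene between Aspn and Ogn, was at 9.78 in aged and 14.97 in young fibroblasts (0.653).

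Of 17 genes of hyaluronan making and turnover, 1 was higher, against 9.58% of all genes, and 0 were lower, against 5.87%, with a median of -0.01 beside 0.09 over all genes. That gene was Hmmr (1.86), a hyaluronan receptor that dividing cells carry. Next came Has3 (1.45), and the lowest were Stab2 (0.719) and Ugp2 (0.892). Cd44, the main hyaluronan receptor, was at 1698 in aged and 1705 in young fibroblasts (0.996), and Tnfaip6, which links proteins to hyaluronan, at 3423 and 3148 (1.09). These 2 were named after their values were seen.

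Of 20 genes for chondroitin and dermatan sulfate chains, 1 was higher, Chpf2 (1.59), against 9.58% of all genes, and 0 were lower, against 5.87%. The median was 0.12, beside 0.09 over all genes. Chst7 followed with 1.35 (0.917 to 1.99), at under 2 CPM, and the lowest were Dsel (0.834) and Chst11 (0.893). Of 6 genes for keratan sulfate chains, 0 were higher (9.58% of all genes) and 0 lower (5.87%), with a median of 0.06 and ratios from 0.887 for B4galt4 and 0.966 for B4galt1 to 1.19 for Chst1 and 1.20 for Chst2. Of 12 proteases that cut core proteins, 3 were higher, against 9.58% of all genes, and 3 lower, against 5.87%, with a median of 0.14. Adamts20 (3.62) and Adamts8 (2.91) had the highest ratios, both at under 2 CPM. Mmp3, which cuts decorin and other matrix proteins, was at 963 CPM in aged and 2153 in young fibroblasts (0.447), and Adamts15 at 16.8 and 31.2 (0.538).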

How the data were processed

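The authors deposited unnormalized counts of UMIs for each gene in each barcode. Per the file headers these come from Cell Ranger 8.0.1, whereas version 9.0 is named in the submitters' processing notes, beside STAR, Seurat 4 and the mouse build GRCm38 (mm10), and the labels name the kit as both version 3 and version 3.1. Of the 33696 features, 1684 have identifiers absent from GENCODE M21, and none of the 10 genes is among them.

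Cells with at least 500 UMIs, 200 genes and under 15% mitochondrial UMIs were kept (aged 4379 barcodes, young 4932 before). Scrublet, run through scanpy 1.11.5, called 2 aged and 3 young doublets, so few that it did not work, and doublets remain. Barcodes past 2 type gates (124 aged, 207 young) were left out of the types. A type gate needs 3 detected markers and a summed level per 10000 UMIs of 50 for fibroblasts and neutrophils, 16 for macrophages and monocytes, 5 for T and NK cells and 10 for endothelial cells. Subset and state gates of fibroblasts need 10 per 10000. Those of macrophages and monocytes need 32 for C1q, 8 for Ly6c2 Plac8 and 8 for Mmp12 Il1a. Fibroblast scores lay between 25 and 50 in 33 aged and 53 young cells, and between 50 and 100 in 41 aged and 40 young cells.

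UMIs were summed per group and scaled to CPM. CPM has exact Poisson intervals, shares have exact Clopper-Pearson intervals and ratios have exact conditional binomial intervals, all at 95%. Genes with at least 50 UMIs over both libraries were counted at 1.5-fold between ages. Between subsets, genes with at least 50 UMIs in each library were counted at 2-fold in both libraries. Shares were taken after thinning to 2000 UMIs, which left out 28 aged and 28 young fibroblasts. TMM factors came from edgeR 4.0.16. The code for ratios and intervals was tested on simulated data. The 10 genes, the lists and the gates were chosen with earlier results of these data known. From each list the 2 highest and 2 lowest ratios are named, and for each of the 10 genes the most alike genes by correlation, of which those of Lum and Has2 are not reported here.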

Additional observations from a re-analysis of the deposited data

Results flagged for a closer look

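Fmod, Ogn, Prelp and Aspn each had an aged over young ratio above 1 in one fibroblast subset and below 1 in another, with both counting intervals on their own side of 1. The difference between subsets was not tested, since there is 1 library per age, and the subset gates overlap. Fmod had a ratio of 3.33 in interferon-high cells, from 61 UMIs in 11 of 343 aged cells and 5 UMIs in 4 of 112 young cells (3.21% and 3.57% of cells), and of 0.637 in cells with no subset gate. Ogn had 1.42 in interferon-high cells and 0.855 in cells with no subset gate. Prelp had 1.24 in Cxcl14 C7 cells and 0.515 in Acta2 Crabp1 cells. Aspn had 2.04 in cycling cells, of which there were 112 aged and 66 young, and 0.822 in interferon-high cells.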

How the results depend on the processing

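No paired analysis was possible because there is 1 library per age, and no replicate could be left out. In fibroblasts, 0 genes were 1.5-fold higher and 1 lower under every alternative run. With TMM scaling the count of genes lower over all cells was 1 (0 as reported), that in macrophages and monocytes 4 (2 as reported), and the count of chain-making genes higher for chondroitin and dermatan sulfate 0 (1 as reported). With the mean of per-cell levels, 0 were higher and 1 lower over all cells (1 and 0 as reported), 3 were lower in neutrophils (1 as reported) and 0 in endothelial cells (1 as reported). Without the 10 cells with the most UMIs of a gene, 1 was lower in macrophages and 2 in neutrophils, and in endothelial cells 2 were higher (1 as reported) and 0 lower. With stricter gates, 1 was lower in macrophages, 3 in neutrophils, 2 in T and NK cells (4 as reported) and 0 in endothelial cells, where 0 were higher. With looser gates, 1 was lower in macrophages, 2 in neutrophils and 0 in endothelial cells. Clusters in place of gates gave 2 lower in neutrophils, and leaving out the top 4% of doublet scores gave 2 lower in T and NK cells. With genes of at least 20 UMIs, 1 was higher in neutrophils and 2 lower in endothelial cells, hyaluronan genes were 2 higher and 1 lower (1 and 0 as reported), and 1 keratan sulfate gene was higher (0 as reported). Without cycling fibroblasts, 1 gene was 2-fold higher in Cxcl14 C7 cells (2 as reported), since Ogn missed the fold in the aged library.

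The endothelial ratio of Vcan, 0.649 as reported, turned round to 1.06 with per-cell means, 1.82 without the 10 highest cells and 1.30 with looser gates. Of single ratios and folds past their thresholds, 26 of 28 kept the call with TMM scaling, 20 of 28 with per-cell means, 23 of 26 without the 10 highest cells, 45 of 45 with all deposited barcodes, 41 of 43 without the top doublet scores, 26 of 39 with stricter gates, 37 of 44 with looser gates, 4 of 4 with clusters, 27 of 27 with at least 20 UMIs, 1 of 1 in fibroblasts of at least 10000 UMIs and 16 of 17 without cycling cells. Those lost include Has2 in Cxcl14 C7 cells under 5 of these settings, and its ratio stayed above 1. The cause of these changes was not tested.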
